A study of Mus musculus with 6 samples.

Results

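Angiogenic and secreted targets linked to hypoxia-inducible factor 2 (HIF-2) were followed in tubular epithelial cells isolated from injured mouse kidneys. The set holds 9 genes that were listed by name as HIF-2-linked secreted or lipid-storage targets: Epo, Vegfa, Adm, Pdgfb, Angptl4, Ndrg1, Igfbp3, Loxl2 and Plin2. Of these, 8 were measured, each by 1 transcript cluster (a group of probes summarised to about 1 value per gene), out of 22206 clusters in all. Loxl2, which encodes a collagen and elastin crosslinking enzyme, was not analysed here. Both arms went through 30 min of kidney ischemia and 24 h of reperfusion, so the control arm was also injured. The IR arm had received vehicle (3 arrays). The IRPT arm had received PT2385 (3 arrays) at 10 mg/kg per injection, with the first injection 16 h ahead of surgery and the others 1, 8 and 20 h following it. The labels spell the injected compound PT2384 at 1 place and PT2385 elsewhere, and they give no strain, age or sex. No allele, transgene or Cre driver is named in them. The cells came from collagenase digests of kidneys, and the labels describe no further sorting of cell types.

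HIF-2 is a transcription factor made of an oxygen-regulated subunit, HIF-2α (gene Epas1), and a constant partner, ARNT. When oxygen falls, HIF-2α escapes hydroxylation and degradation, pairs with ARNT and binds short DNA elements with the core ACGTG or GCGTG. PT2385 binds a pocket in HIF-2α and keeps it from pairing with ARNT, so it acts on the protein and not on the Epas1 transcript. Several products of the genes described here leave the cell and act on vessels, blood cell precursors or matrix. In the kidney HIF-2α is best known from interstitial and endothelial cells, and tubular cells mostly hold HIF-1α, its relative with an overlapping set of targets. The measured question was how these transcripts differed between vehicle and PT2385 arms after injury.

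Values are log2 signals, and a difference of 1 is 2-fold. Differences are PT2385 minus vehicle, with the standard error (SE), the 95% interval and the Benjamini-Hochberg adjusted p from limma fitted over all clusters. A gene was called at an adjusted p under 0.05. Of the 8 measured targets 0 were called by limma, against 0.829% of all clusters, and 1 (Adm) had an unadjusted p under 0.05, against 14.5% of all clusters. The differences had both signs, with 4 positive and 4 negative differences and a median of -0.06, beside 0.02 over all clusters. The arrays of the arms did not overlap for 2 of the 8 targets (Adm and Pdgfb, both lower with PT2385), where 20.7% of all clusters did not overlap and 9.13% did so with lower PT2385 values. The targets that lay furthest from 0 were Adm (-0.99) and Plin2 (-0.89). Differences between the 5th and the 95th percentile of all clusters ran from -0.34 to 0.34, and the other 6 targets lay within or next to that range.

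**Figure D1:**
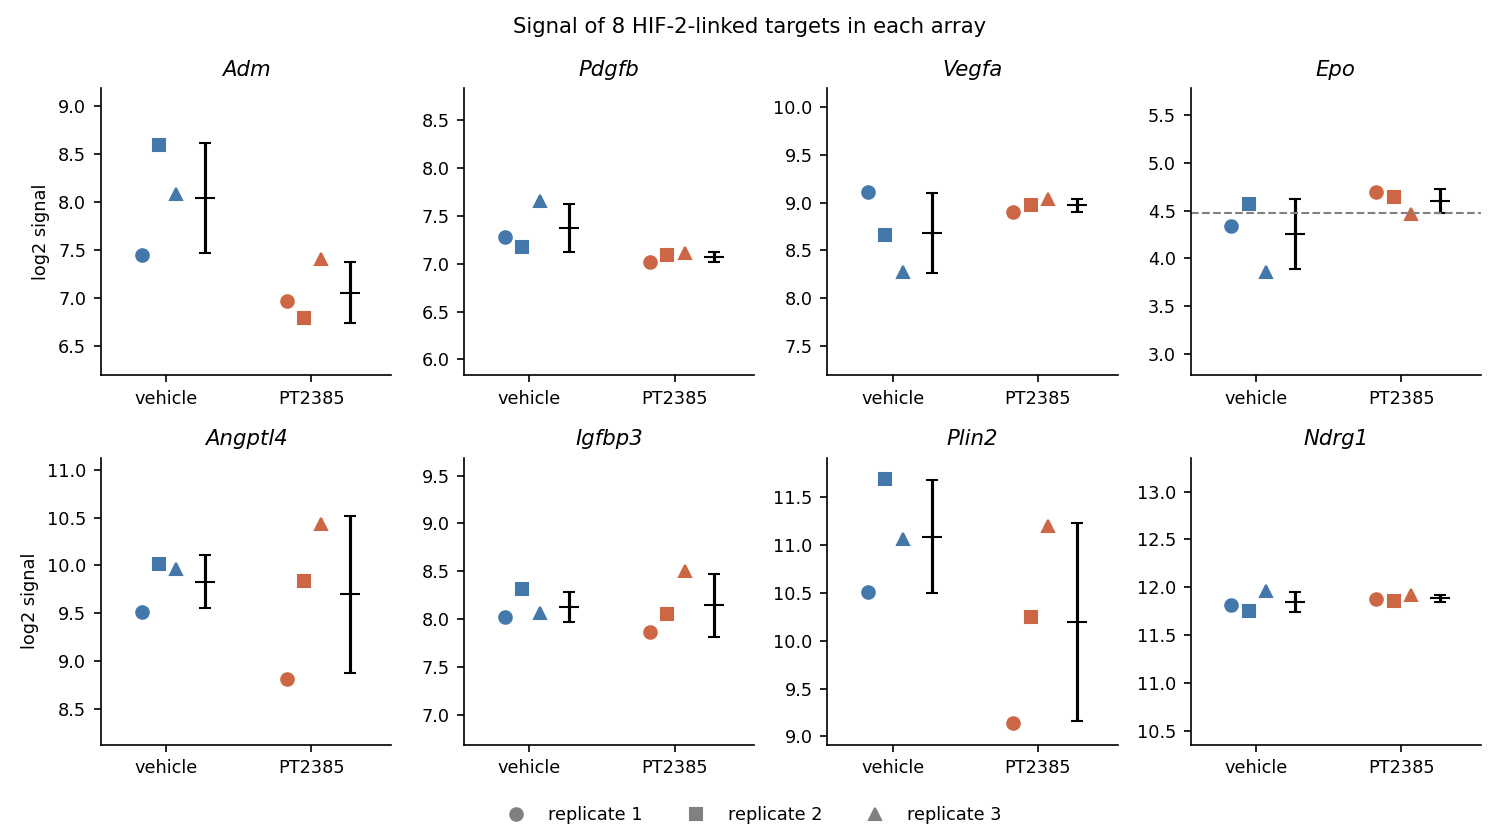
Log2 signal of the 8 measured targets in each of the 6 arrays, with 1 panel per gene, all panels 3 log2 units high, and a bar for the mean ± SD of each arm (n = 3). Symbols mark the replicate number; the dashed line in the Epo panel is the negative control level, 4.47 (the median over negative control probes in the array where it was highest). Adm is lower in all 3 PT2385 arrays than in any vehicle array, while the arms overlap widely for Angptl4, Igfbp3 and Ndrg1.

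The arms also differed in transcripts of the Y chromosome. The mean log2 signal of Eif2s3y, Uty and Kdm5d lay between 8.07 and 8.15 in every vehicle array, and with PT2385 it lay between 3.04 and 3.29. An effect of PT2385 on any target, other gene or marker list below and a difference in sex between the arms cannot be told apart. Tissue identity was checked with marker lists. The mean signal of 10 proximal tubule markers ran from 10.71 to 11.06 in the vehicle and from 10.41 to 11.27 in the PT2385 arrays, and none of the 10 lay at or below the negative controls in both arms. Of these, 1 was called, the organic anion transporter gene Slc22a6, which fell (11.71, 11.74 and 11.86 with vehicle, 10.84, 10.91 and 10.65 with PT2385, a difference of -0.97, SE 0.10, limma adjusted p = 0.00572) and kept the call without any 1 array. Markers of other cells were measured too, with means of 7.87 to 8.24 and 8.01 to 8.18 for 11 endothelial markers and 7.38 to 7.65 and 7.56 to 7.70 for 11 fibroblast and pericyte markers in these arms. In such isolates fewer cells of a type and less RNA per cell cannot be told apart.

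Adm encodes the precursor of adrenomedullin, a secreted peptide that widens vessels and keeps the endothelium tight. Its log2 signal was 7.45, 8.59 and 8.08 with vehicle and 6.97, 6.78 and 7.41 with PT2385 (replicates 1, 2 and 3 in each list of values here and below). Every PT2385 array lay under every vehicle array, although vehicle replicate 1 and PT2385 replicate 3 were close to each other. The means were 8.04 ± 0.57 and 7.05 ± 0.32 (SD, n = 3 each). The difference was -0.99 (SE 0.27, 95% interval -1.61 to -0.36, limma adjusted p = 0.174), which is a PT2385 signal 0.505 times that of vehicle with an interval from 0.328 to 0.777. The unadjusted limma p was 0.00615, and the exact 2-sided permutation test over the arrays gave p = 0.1, the smallest that 3 against 3 allows. The difference did not pass over all clusters. All 3 PT2385 arrays lay inside the range of the background control probes (2.41 to 7.47 over all arrays), and vehicle replicate 1 lay level with the top of its own array's range (7.45). The fold and its interval can thus be understated. That range is wide, and the median cluster of each array (6.20 to 6.25) lay inside it too. The difference was -0.71 without vehicle replicate 2 and -1.28 without vehicle replicate 1. Taken from the spread of Adm alone, and not moderated by that of other clusters, the SE was 0.38, and such an interval takes in 0.

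The start of the Adm gene is shown because Adm had the smallest p of the set and because the drug acts on a factor that binds DNA. The sequence is RefSeq's for GRCm38.p6, chr7:110627407-110627676, plus strand, 250 bases before the start of the gene and the first 20 from it, with matches to GCGTG in capitals.
Adm: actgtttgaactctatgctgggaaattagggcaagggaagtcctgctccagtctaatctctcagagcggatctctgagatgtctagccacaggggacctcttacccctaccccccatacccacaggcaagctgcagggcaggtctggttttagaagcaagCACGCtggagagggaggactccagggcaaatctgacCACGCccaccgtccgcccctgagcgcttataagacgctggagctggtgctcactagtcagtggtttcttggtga
Both matches read CACGC here, since GCGTG lies on the opposite strand. They begin 90 and 54 bases before the start, and ACGTG does not occur in these letters.

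Pdgfb encodes the B chain of platelet-derived growth factor, which draws pericytes and fibroblasts through the receptor PDGFRB. Its signal was 7.28, 7.18 and 7.65 with vehicle and 7.01, 7.09 and 7.12 with PT2385. The arms did not overlap, but the lowest vehicle array and the highest PT2385 array were nearly level, and vehicle replicate 3 stood above the rest. The difference was -0.30 (SE 0.13, 95% interval -0.60 to 0.01, limma adjusted p = 0.354). Its signals lay inside that background range in all arrays but vehicle replicate 3, so a difference here can be understated. Without vehicle replicate 3 it was -0.15. The receptor gene Pdgfrb differed by 0.08 (SE 0.14).

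Vegfa encodes vascular endothelial growth factor A, the main growth signal for endothelial cells, and is a target of both HIF-1 and HIF-2. Its signal was 9.11, 8.66 and 8.28 with vehicle and 8.90, 8.97 and 9.04 with PT2385. The PT2385 arrays were close together inside the upper part of the vehicle range, and vehicle replicate 1 was the highest of all. The difference was 0.29 (SE 0.19, 95% interval -0.14 to 0.72, limma adjusted p = 0.515). It was 0.088 without vehicle replicate 3 and 0.50 without vehicle replicate 1. The upper bound is 1.64 times the vehicle signal and the lower bound 0.909 times.

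Epo encodes erythropoietin, the hormone that sustains red cell precursors, which the adult kidney makes in interstitial cells and which is the textbook HIF-2 target. Its signal was 4.33, 4.57 and 3.86 with vehicle and 4.70, 4.64 and 4.46 with PT2385. The arms overlapped, and the vehicle mean (4.25) lay under the negative control level (4.47). The difference was 0.34 (SE 0.17, 95% interval -0.05 to 0.74, limma adjusted p = 0.405). It was 0.15 without vehicle replicate 3. At this signal a lower Epo level was not detectable.

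The start of Epo is shown as that of the textbook target, from RefSeq for GRCm38.p6 at chr5:137485797-137486066, minus strand, with the same window and marks.
Epo: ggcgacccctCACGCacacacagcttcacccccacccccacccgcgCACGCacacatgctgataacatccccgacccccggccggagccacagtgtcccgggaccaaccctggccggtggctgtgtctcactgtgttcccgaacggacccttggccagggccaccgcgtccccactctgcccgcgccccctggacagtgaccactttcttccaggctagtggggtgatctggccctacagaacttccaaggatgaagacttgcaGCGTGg
GCGTG was matched 3 times, on the opposite strand from 240 and from 204 bases before the start and on the gene's own strand just after it. No ACGTG lies in the window.

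Angptl4 encodes angiopoietin-like 4, a secreted inhibitor of lipoprotein lipase that also acts on vessels and that answers to fatty acids through PPAR receptors as well as to hypoxia. Its signal was 9.51, 10.01 and 9.96 with vehicle and 8.82, 9.84 and 10.43 with PT2385. The lowest and the highest of the 6 values were both PT2385 arrays. The difference of -0.13 (SE 0.35, 95% interval -0.94 to 0.67, limma adjusted p = 0.895) was far smaller than the spread of the PT2385 arm (SD 0.82). Without PT2385 replicate 1 it turned to 0.31.

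Igfbp3 encodes a binding protein that carries insulin-like growth factors in blood and tissue. Its signal was 8.02, 8.31 and 8.06 with vehicle and 7.87, 8.06 and 8.51 with PT2385, so the arms overlapped fully. The difference was 0.01 (SE 0.17, 95% interval -0.37 to 0.40, limma adjusted p = 0.979). Its sign changed under 5 of 16 other settings, with values from -0.17 to 0.15.

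Plin2 encodes perilipin 2, the coat protein of lipid droplets in cells that are not fat cells, whose amount follows the stored lipid. Its signal was 10.51, 11.69 and 11.06 with vehicle and 9.14, 10.25 and 11.20 with PT2385. PT2385 replicates 1 and 2 lay under all vehicle arrays, and PT2385 replicate 3 lay among them. The means were 11.08 ± 0.59 and 10.20 ± 1.03 (SD, n = 3 each), with a difference of -0.89 (SE 0.48, 95% interval -1.98 to 0.20, limma adjusted p = 0.434). The difference was -0.36 without PT2385 replicate 1, -0.59 without vehicle replicate 2 and -1.39 without PT2385 replicate 3.

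The start of Plin2 is shown because this gene had the second largest difference of the set, from RefSeq for GRCm38.p6 at chr4:86670040-86670309, minus strand, with the same window and with matches to ACGTG or GCGTG in capitals.
Plin2: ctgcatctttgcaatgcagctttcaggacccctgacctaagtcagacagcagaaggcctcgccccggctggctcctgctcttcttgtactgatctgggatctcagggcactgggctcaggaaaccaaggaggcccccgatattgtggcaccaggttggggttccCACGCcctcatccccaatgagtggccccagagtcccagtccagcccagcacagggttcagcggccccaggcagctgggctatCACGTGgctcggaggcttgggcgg
The 6-letter run CACGTG spans the start of the gene and was matched on both strands, since it reads the same on each. A GCGTG on the opposite strand begins 86 bases before the start. Windows for 5 of the 8 measured targets were at hand, 6 in all with a pair of starts for Vegfa. The letters ACGTG or GCGTG occurred on either strand in 5 of these 6 windows and in 40.7% of 32851 windows of the same length over all genes, with ACGTG in 17.9% and GCGTG in 30.0%. The window without a match was that of the Vegfa start further upstream (chr17:46032358-46032627, minus strand). Thus Vegfa was counted only through its start further downstream (chr17:46025144-46025413, minus strand). As read from the upstream start, that window lies inside the gene. Its matches therefore do not describe the sequence before the upstream start. The 6 windows had 55.9% to 72.2% G and C against a median of 52.6%, and the part of this content in the matches was not tested. Matches are descriptions of the letters and do not mark bound sites.

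Ndrg1 encodes a cytoplasmic stress-response protein that is induced by hypoxia in many cell types. Its signal was 11.82, 11.75 and 11.96 with vehicle and 11.88, 11.85 and 11.92 with PT2385. All PT2385 values lay within the vehicle range. The difference was 0.04 (SE 0.10), and its 95% interval from -0.17 to 0.26 (limma adjusted p = 0.867) bounds the PT2385 signal between 0.886 and 1.20 times that of vehicle. The brightest cluster of an array reached 13.39 to 13.49, and an array compresses signals near its ceiling, so this bound can be too narrow.

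**Figure D2:**
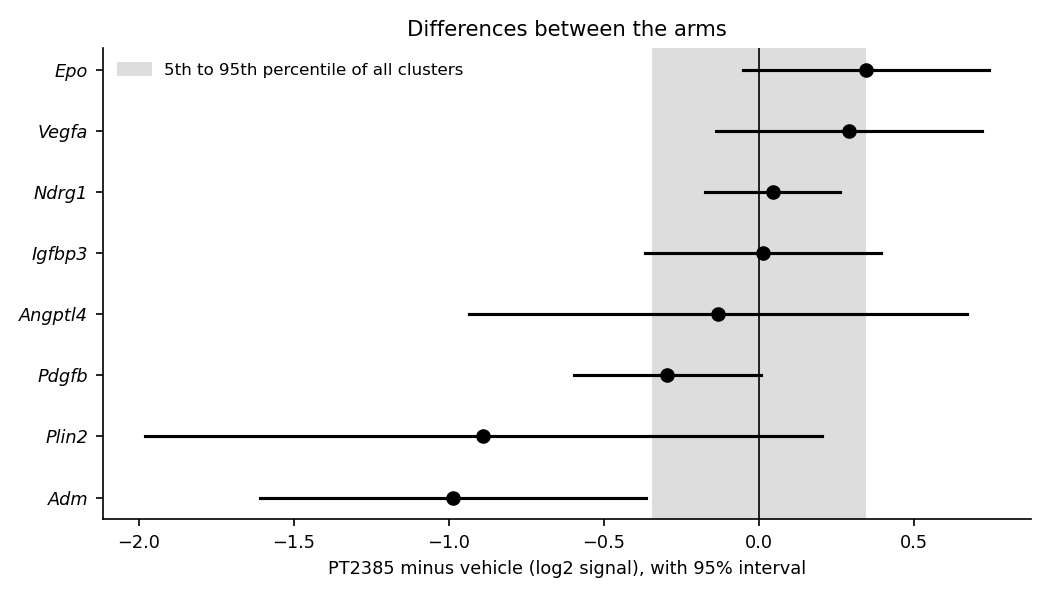
PT2385 minus vehicle difference (points, log2 signal) with its 95% interval from limma (lines) for the 8 measured targets. The grey band spans the 5th to 95th percentile of the differences of all 22206 clusters. The interval excludes 0 for Adm alone, before adjustment, and it is widest for Plin2. From the spread of Adm alone, its SE is 0.38 and such an interval takes in 0.

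For 4 of the 8 targets (Vegfa, Angptl4, Ndrg1 and Igfbp3) the 95% interval of the main fit lay inside a 2-fold change either way. Those of Epo and Pdgfb did so too. The vehicle mean of Epo lay under the negative control level, so its interval does not bound the change. Pdgfb, with a mean of 7.22 over the arrays, lay above that level. Its signals were inside the wide background range in all arrays but vehicle replicate 3, so its change can be understated. The intervals of Adm and Plin2 reached past a 2-fold reduction. These widths followed the spread between arrays of the same arm, which was uneven among the targets. The within-arm SD of Plin2 was at least as large as that of 99.8% of all clusters, that of Angptl4 as 99.4% and that of Adm as 98.4%. The main fit draws such wide spreads towards those of other clusters (variance moderation). For Angptl4 the SE was 0.35 with it and 0.50 without it, and the interval then passes a 2-fold change. Ndrg1 varied least of the targets, with an SD at or above that of only 13.1% of clusters.

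Plin2, Angptl4 and Igfbp3 ranked the arrays of each arm alike. In all 3 genes vehicle replicate 1 was the lowest and vehicle replicate 2 the highest of its arm, and PT2385 replicate 1 was the lowest and PT2385 replicate 3 the highest. Adm ranked the vehicle arrays in that way too, but its lowest PT2385 array was replicate 2. The lipid-regulated kinase gene Pdk4, picked after its values were seen, had 8.21, 8.99 and 10.15 with PT2385, and so shared the order of these genes in that arm, though its highest vehicle array was replicate 3. Among 1151 brighter named genes with an SD of at least 0.3 over the arrays, those with the pattern most like Adm over the 6 arrays were Mtmr11 (Pearson r = 0.988), Zadh2 (r = 0.986) and Acot12 (r = 0.979). These points share the same libraries and the split into arms, so r is a description only. Mtmr11 differed by -0.44 (SE 0.15), Zadh2 by -0.53 (SE 0.16) and Acot12 by -0.83 (SE 0.16), with limma adjusted p between 0.0721 and 0.241.

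**Figure D3:**
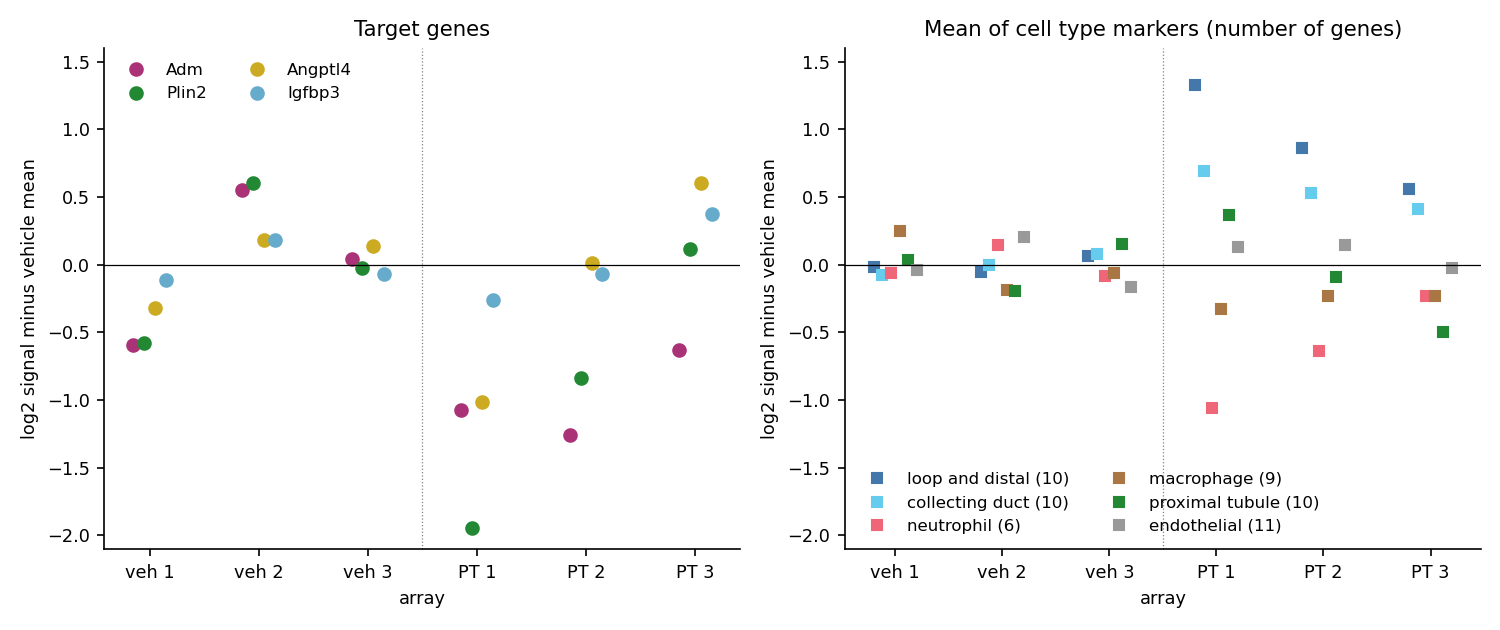
Log2 signal of 4 targets (left) and mean log2 signal of 6 cell type marker lists (right) in each array, each minus its vehicle mean; points are arrays, and the dotted line parts the arms. Plin2 reaches from -1.95 to 0.12 over the PT2385 arrays. Loop and distal markers are highest, and neutrophil markers lowest, in PT2385 replicate 1, where Plin2 and Angptl4 are lowest too.

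Marker lists of several cell types moved with the arms and with the arrays inside the PT2385 arm. The mean of 10 loop and distal markers was 8.70 to 8.82 with vehicle and 10.08, 9.62 and 9.32 in PT2385 replicates 1, 2 and 3, and 1 of them, the tight junction gene Cldn19, rose (1.24, SE 0.18, limma adjusted p = 0.0259). That of 10 collecting duct markers was 8.11 to 8.27 and 8.60 to 8.88, with 0 called by limma and 7 at an unadjusted p under 0.05. The mean of 6 neutrophil markers was 5.70 to 5.93 with vehicle and 4.73, 5.15 and 5.56 in the PT2385 replicates 1, 2 and 3. Of these, the receptor gene Csf3r fell (-1.04, SE 0.16, limma adjusted p = 0.0326), and Mpo, at 4.27 and 4.40, lay under the negative control level in both arms. The list did not move evenly. S100a8 (-1.56, SE 0.34) and S100a9 (-1.01, SE 0.31) were lower but not called. Cxcr2 (-0.13, SE 0.15) and Retnlg (-0.24, SE 0.35) differed by less than their error, and Mpo had 0.13 (SE 0.10). The Csf3r signals lay inside the background range given for Adm in all arrays, so the size of its fall can be understated. Of 9 macrophage markers 1 was called, the lysozyme gene Lyz2, which fell by 1.19 on the log2 scale (SE 0.16, limma adjusted p = 0.0202), and the list means were 6.34 to 6.78 and 6.20 to 6.30. The macrophage list did not move as a whole, with a median difference of -0.045. Its differences were negative for 6 markers and positive for 3, C1qa (0.11), C1qb (0.23) and C1qc (0.15). Besides Lyz2, Itgam (-0.95, SE 0.21) and Mrc1 (-0.57, SE 0.22) were lower at an unadjusted p under 0.05, and neither was called. The calls of Cldn19, Csf3r and Lyz2 and that of Cyp4a14 below were lost in 2 to 4 of the 6 fits that left out 1 array, PT2385 replicate 2 in each case among them, with adjusted p up to 0.149 for Cldn19, 0.150 for Csf3r, 0.131 for Lyz2 and 0.199 for Cyp4a14. These calls were lost without variance moderation as well. The endothelial, podocyte and fibroblast lists had 0 called members by limma (0, 1 and 2 at an unadjusted p under 0.05) and overlapping means between the arms. PT2385 replicate 1, with the lowest Plin2 and Angptl4, thus had the highest mean of loop and distal markers and the lowest mean of neutrophil markers. The part of these marker levels in the differences of Adm, Plin2 and Angptl4 was not tested.

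Transcripts of the factor and its sensors differed little between the arms. Epas1 had 8.72, 8.82 and 8.62 with vehicle and 8.76, 8.73 and 8.64 with PT2385, a difference of -0.01 (SE 0.10, limma adjusted p = 0.977). Hif1a differed by 0.01 (SE 0.12) and Arnt by 0.07 (SE 0.09). Of the 9 HIF subunits and oxygen sensors 0 were called by limma and 0 had an unadjusted p under 0.05, with a median of -0.03 and a range from -0.29 to 0.07. The ends of that range were Arnt2 (-0.29, SE 0.13), which also had the smallest p of the list, and Arnt. Vhl, the ubiquitin ligase component that marks HIF-α for degradation, came next by p (-0.13, SE 0.09).

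Receptors and partners of the secreted products showed small differences. Of 17 measured, 0 were called by limma and 2 had an unadjusted p under 0.05, with a median of 0.06 and a range from -0.39 to 0.35. The erythropoietin receptor gene Epor had 5.30, 5.59 and 5.12 with vehicle and 5.69, 5.64 and 5.73 with PT2385, a difference of 0.35 (SE 0.13, limma adjusted p = 0.274). All these Epor signals lay inside the background range given for Adm. Ackr3, which encodes a scavenging chemokine receptor that also takes up adrenomedullin, had -0.39 (SE 0.16, limma adjusted p = 0.304). The signalling receptor of adrenomedullin, from Calcrl and Ramp2, had differences of 0.20 (SE 0.20) and 0.13 (SE 0.20). The VEGF receptor genes Kdr and Flt1 had -0.20 (SE 0.21) and 0.0039 (SE 0.14), so both differences were smaller than their error.

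Among 16 other angiogenic ligands 0 were called by limma and 3 had an unadjusted p under 0.05, with a median of -0.02. Angpt2, which encodes a vessel-destabilising ligand of the TIE2 receptor, had 5.03, 5.77 and 4.79 with vehicle and 6.25, 6.34 and 5.92 with PT2385. The arms did not overlap, and the difference of 0.97 (SE 0.24, limma adjusted p = 0.129) was nearly as large as that of Adm with the opposite sign. All these Angpt2 signals lay inside the range of the background control probes (2.41 to 7.47), so the sizes of the 2 differences are not closely comparable. Fgf1, a fibroblast growth factor gene, had -0.43 (SE 0.16, limma adjusted p = 0.289). Relatives of the targets had a median of 0.13 over 22 genes with 17 positive differences, 0 called by limma and 5 at an unadjusted p under 0.05. The growth factor binding protein gene Igfbp5 had 0.54 (SE 0.14, limma adjusted p = 0.162) and Igfbp7 had 0.22 (SE 0.09, limma adjusted p = 0.289). The other perilipin genes did not share the difference of Plin2 in size, with 0.18 (SE 0.10) for Plin1, -0.12 (SE 0.09) for Plin3, 0.38 (SE 0.17) for Plin4 and -0.19 (SE 0.15) for Plin5, though these differences from Plin2 were not tested. Lox, Loxl1, Loxl3 and Loxl4, the relatives of Loxl2, had differences from -0.27 to 0.09.

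**Figure D4:**
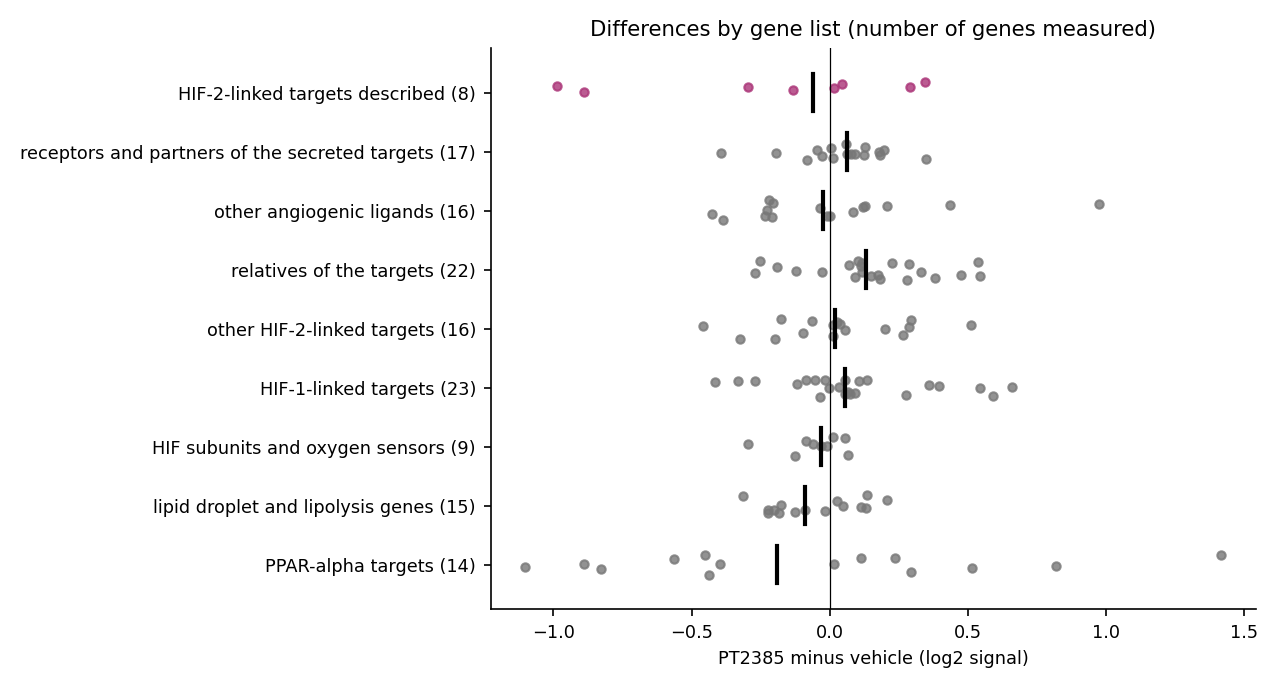
PT2385 minus vehicle differences (log2 signal) of single genes (points, spread vertically for view) in the set described and in 8 lists of related genes, with the median of each list as a black bar. List medians lie between -0.19 and 0.13. Adm and Plin2 lie below the lowest gene of every list but the PPAR-alpha targets.

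Other HIF targets gave no called gene either. Of 16 other HIF-2-linked targets 0 were called by limma and 4 had an unadjusted p under 0.05, with a median of 0.02. Those with the smallest p were Scnn1g, an epithelial sodium channel subunit gene that also stands in the collecting duct list (0.51, SE 0.12, limma adjusted p = 0.128), and Slc11a2, which encodes the iron transporter DMT1 (-0.32, SE 0.10, limma adjusted p = 0.204). Of 23 HIF-1-linked targets 0 were called by limma and 5 had an unadjusted p under 0.05, with a median of 0.06. The smallest p belonged to Hk1, a hexokinase gene (0.66, SE 0.12, limma adjusted p = 0.0566). Pkm, the gene of a pyruvate kinase, came next (0.54, SE 0.11, limma adjusted p = 0.0764), and both had higher values in all PT2385 than in all vehicle arrays. Beside these medians, that of the 8 targets was -0.06.

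Genes of lipid storage and fatty acid sensing stand next to Plin2 and Angptl4. Of 15 lipid droplet and lipolysis genes 0 were called by limma and 1 had an unadjusted p under 0.05, with a median of -0.09. The triglyceride synthesis gene Dgat2 had -0.31 (SE 0.10, limma adjusted p = 0.218) and Rab18, a droplet-bound GTPase gene, had -0.18 (SE 0.11, limma adjusted p = 0.484). The 14 measured PPAR-alpha targets spread more widely, from -1.10 to 1.42 with a median of -0.19 and 7 of 14 negative. Of these, 7 did not overlap between the arms (20.7% of all clusters) and 9 had an unadjusted p under 0.05 (14.5% of all clusters). Of the 14, 1 was called, the fatty acid hydroxylase gene Cyp4a14, which rose by 1.42 (SE 0.24, limma adjusted p = 0.0431). Its means were 10.69 ± 0.57 in vehicle and 12.11 ± 0.06 in PT2385 arrays (SD, n = 3 each). Lower at an unadjusted p under 0.05, but not called, were Ehhadh (-1.10, SE 0.21), Acot1 (-0.89), Acaa1b (-0.83), Cpt2 (-0.56), Slc25a20 (-0.44) and Cpt1a (-0.40). Fabp3 (0.51) and Fabp1 (0.82) were higher, and the vehicle mean of Fabp1 (4.36) lay under the negative control level.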

How the data were processed

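Total RNA of isolated tubular cells was labelled with biotin and hybridised to Affymetrix whole-transcript arrays, 1 per sample, per the labels' protocols. The deposited values are log2 signals, 1 per transcript cluster and array. The submitters' processing notes list Transcriptome Analysis Console. How probes were summarised, corrected for background and normalized is not given in the sources used here. The labels IR and IRPT were read as the vehicle and PT2385 arms.

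Of 28846 rows, 6640 control rows were left out and 22206 clusters were tested with limma 3.58.1 in R 4.3.3 (lmFit and eBayes, treatment as the only term, 2-sided, Benjamini-Hochberg adjustment over all clusters). Names came from the platform annotation, and updating them by Entrez ID changed 0. The brightest cluster would have stood for a gene with several, but each target had 1. Of 227 genes in the lists used, 208 were measured.

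The targets and lists were chosen with earlier results of these data known. The 8 measured targets were all named, and from each list the called members (at most 4 by size), or else, for lists that are not cell type markers, the 2 with the smallest p, together with Epas1, Hif1a and Arnt. Receptors and relatives of the targets, further PPAR-alpha targets and further macrophage and neutrophil markers were added after their values were seen. Alternatives covered the replicate block, scaling, filters, variance models, array weights and each array left out. On simulated arrays over 22206 clusters the PT2385 against vehicle test recovered 24% of 50 clusters changed by 0.5 and 72% of those changed by 1 (log2). Those clusters were drawn at random and all raised. Adm, Plin2 and Angptl4 spread more than most clusters, so these shares do not give the recovery for them. The labels do not tell whether each sample was another animal, so the spread behind the p-values may be technical. The number of arrays limits the precision.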

Additional observations from a re-analysis of the deposited data

How the results depend on the processing

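Under all 16 alternatives 0 of the measured targets were called by limma. Epo, Vegfa, Adm, Pdgfb and Plin2 kept their sign in each alternative that measured them; Epo was below the level of the filter on dim clusters. Without vehicle replicate 3 Epo was 0.15, Vegfa 0.088 and Pdgfb -0.15, and without vehicle replicate 1 Vegfa was 0.50. Adm ran from -1.28 to -0.71, with adjusted p from 0.0733 (array weights) to 0.477. Signs near 0 turned with median centring for Ndrg1 (-0.0019) and Igfbp3 (-0.032), and with array weights for Angptl4 (0.012) and Igfbp3 (-0.0059). Leaving out single arrays gave -0.50 to 0.31 for Angptl4, -0.17 to 0.15 for Igfbp3 and -0.0013 to 0.10 for Ndrg1. The count of all clusters called was 184 and became 456 with array weights and 9 without variance moderation, and it ran from 42 (without PT2385 replicate 2) to 179 with single arrays left out. Of the calls 74 were higher and 110 lower, and with median centring 57 and 135. Same-numbered samples did not deviate together (correlations from -0.06 to 0.14), and the replicate block gave 178 calls and changed no call among the targets. No target had a second cluster, so that alternative was not run. The cause of these shifts was not tested.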
